A study of Oryza sativa with 12 samples.

Results

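WOX11, WOX6 and WOX9 are rice genes of the WUSCHEL-related homeobox (WOX) family, and their transcripts were followed in the stem base of seedlings, from which crown roots emerge. The genes were chosen by identity: LOC4344325 (WOX11), LOC4332705 (WOX6) and LOC4324824 (WOX9, also called QHB, and WOX5 among its other names). These 3 genes are among the 17905 genes that have a probe set of their own on the Affymetrix Rice Genome Array, and they have 4 of the 57194 rice probe sets. WOX11 and WOX9 have 1 probe set each and WOX6 has 2, and 3 of the 4 passed the filter on dim probe sets (a signal above the array's median on at least 2 arrays). All arrays carried RNA from stem bases of seedlings of the cultivar Taichung 65, aged 8 days, with 20 stem bases pooled in each extract. The groups were crl1 at 0 h, 2 h and 4 h and wild type at 0 h, 2 h and 4 h. Each of the 6 groups had 2 arrays, labelled repetition 1 and repetition 2. The labels do not say that a repetition number marks a run shared across groups. Time counts from the addition of indole-3-acetic acid (IAA, an auxin) at a final 1e-06 M, and the 0 h seedlings had received none. The labels give crl1 by name without its allele. No untreated seedlings kept to 2 h or 4 h were analysed here, so auxin and elapsed time cannot be told apart in any change with time.

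WOX proteins are plant transcription factors with a homeodomain, and members of the family keep stem cells undifferentiated or set up new organs. In rice, WOX11 promotes the emergence and growth of crown roots and represses RR2, a type-A response regulator that damps cytokinin signalling. QHB is a marker of the quiescent centre, the organising cells of the root meristem. WOX6 acts together with WOX11 in the control of tiller angle in rice, downstream of LAZY1 and of auxin. CRL1 is an auxin-responsive LBD transcription factor, and plants that lack it form no crown roots. The level of CRL1 itself was not analysed here.

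Values are MAS5 signals, the linear brightness that the authors' software gives for each probe set. They describe 1 probe set across arrays, so levels of different genes were not set against each other. Background on each array was taken as the 95th percentile of 64 reporter probe sets for genes that rice lacks, and ran from 5.83 to 18.5. WOX11 lay above background on 12 of 12 arrays, at 17.8 to 180 times background. The brighter WOX6 probe set did so on 12 arrays too, at 5.17 to 51.3 times background, and it stands for WOX6 below. The second WOX6 probe set lay above background on 2 of 12 arrays, had no signal above 9.70, and is the one that did not pass the filter. WOX9 lay above background on 8 of 12 arrays and at most at 2.35 times background. In a bulk extract, fewer cells that hold a transcript and less transcript per cell cannot be told apart.

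One array stood apart from the rest. Wild type 2 h repetition 2 had a GAPDH 3' to 5' signal ratio of 35.6, against 3.08 to 17.3 on the other arrays, and a mean correlation with the other arrays of 0.904, against 0.935 to 0.949. Of the markers of the tissues a stem base can hold, 4 of 5 measured KNOX genes of the shoot meristem, among them OSH1 and OSH71, 2 of 2 leaf photosynthesis genes and 2 of 3 root genes lay above background on all 12 arrays. The summed KNOX signal ran from 2050 to 2569 in crl1 and from 1930 to 3021 in wild type, and the summed leaf signal from 6433 to 8461 in crl1 and from 6444 to 13256 in wild type. Both wild-type maxima came from wild type 2 h repetition 2, the array that stood apart. The leaf gene RBCS, of the small Rubisco subunit, was lower in crl1 over the 3 times (-0.66 ± 0.12, limma adjusted p = 0.0297), a call that held in 4 of 12 fits with 1 array left out (adjusted p up to 0.116, without crl1 4 h repetition 1). CAB2R, the other leaf gene, was at -0.07 ± 0.19 (adjusted p = 0.878). The part of tissue makeup in the values below was not tested.

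The first comparison asked how each gene moved with time after auxin. Averaged over crl1 and wild type, WOX11 and WOX6 rose at 2 h and fell again by 4 h, while WOX9 passed in neither step. In crl1, WOX11 signals were 414 and 362 at 0 h, 1897 and 2307 at 2 h, and 389 and 359 at 4 h. In wild type they were 362 and 452 at 0 h, 1659 and 1114 at 2 h, and 263 and 176 at 4 h. All 4 arrays at 2 h lay above all 8 arrays of the other times, and the lowest of them was wild type repetition 2, the array that stood apart.

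WOX6 had the same shape. Its crl1 signals were 70.4 and 67.6 at 0 h, 589 and 503 at 2 h, and 105 and 71.7 at 4 h. Its wild-type signals were 105 and 104 at 0 h, 338 and 408 at 2 h, and 58.4 and 51.1 at 4 h. Again the 4 arrays at 2 h stood above the other 8 with no overlap. SDs of log2 signal between the 2 arrays of a group were 0.08 to 0.41 for WOX11 and 0.01 to 0.39 for WOX6.

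**Figure D1:**
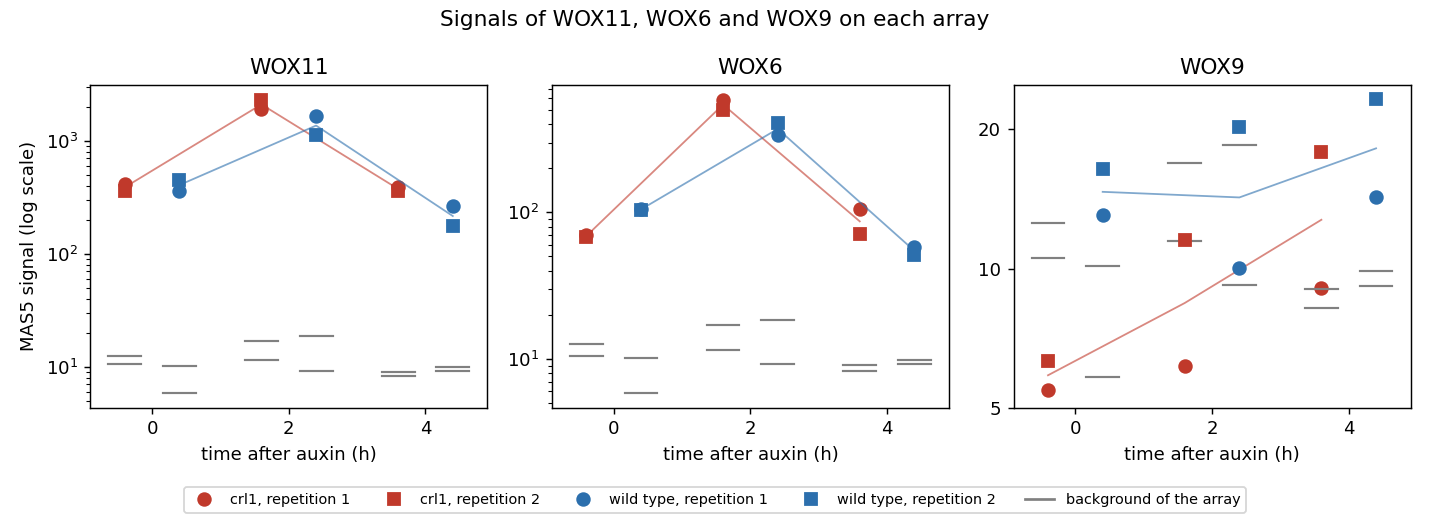
MAS5 signals (log scale) of WOX11, WOX6 and WOX9 against hours after auxin, 1 point per array, with crl1 left of wild type, lines through the geometric means of 2 arrays and grey bars at each array's background. WOX11 and WOX6 peak at 2 h in both genotypes, while WOX9 lies close to background, with crl1 signals from 5.47 to 17.9 and wild-type signals from 10.0 to 23.2.

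Averaged over crl1 and wild type, WOX6 rose at 2 h by 2.40 ± 0.16 log2 units (5.29-fold; SE, 4 arrays against 4; limma adjusted p = 0.000282) and WOX11 by 2.09 ± 0.18 (4.26-fold, adjusted p = 0.00124). These 2 of the 3 genes were called higher in a comparison in which 0.123% of 32524 probe sets were called higher and 0.126% in either direction. By size of the rise WOX6 stood at place 30 and WOX11 at place 71 among those 32524 probe sets. WOX9 was at 0.24 ± 0.40 (adjusted p = 0.933), with a 95% interval from -0.63 to 1.11. Both calls held in 12 of 12 fits with 1 array left out, and without wild type 2 h repetition 2 the rises were 2.33 for WOX6 and 2.24 for WOX11. The WOX6 call was lost (1.39, adjusted p = 0.298) when its signal was averaged with that of its second probe set, which was at or below background on 10 arrays.

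Within crl1 alone, the WOX6 signal at 2 h rose 7.89-fold (2.98 ± 0.23, 2 arrays against 2, limma adjusted p = 0.00217) and that of WOX11 5.41-fold (2.44 ± 0.26, adjusted p = 0.0106), where 0.04% of probe sets were called higher. Within wild type alone the differences were 1.83 ± 0.23 for WOX6 (3.54-fold, adjusted p = 0.103) and 1.75 ± 0.26 for WOX11 (3.36-fold, adjusted p = 0.160), where 0.00307% of probe sets were called higher, and neither passed. Without wild type 2 h repetition 2 they were 1.69 and 2.04 (adjusted p = 0.346 and 0.202). Without wild type 2 h repetition 1, which leaves the array that stood apart alone in its group, both passed, at 1.96 and 1.46 (adjusted p = 0.00345 and 0.0112). In crl1 the WOX11 call was lost without any 1 of the 4 crl1 arrays compared (adjusted p = 0.0709 to 0.127) and the WOX6 call without crl1 2 h repetition 1 (0.0507).

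By 4 h both genes had fallen again. This comparison of 4 h with 2 h was added after the values had been seen, and it shares the 2 h arrays with the comparison above. Averaged over the genotypes WOX6 fell by 2.71 ± 0.16 log2 units (limma adjusted p = 0.000164) and WOX11 fell by 2.57 ± 0.18 (adjusted p = 0.000457), at places 10 and 14 of 32524 by size of fall, in a comparison in which 0.753% of probe sets were called lower and 0.925% in either direction. In crl1, WOX6 was at -2.65 ± 0.23 (adjusted p = 0.00712) and WOX11 at -2.48 ± 0.26 (0.0141), with 0.0246% of probe sets called lower and 0.0277% in either direction. In wild type, WOX6 was at -2.77 ± 0.23 (adjusted p = 0.00462) and WOX11 at -2.66 ± 0.26 (0.0107), with 0.0307% called lower and 0.0338% in either direction. Both averaged calls held with each array left out in turn. Without wild type 2 h repetition 2 the averaged values were -2.64 for WOX6 and -2.72 for WOX11, and those in wild type were -2.63 and -2.95 (adjusted p = 0.0201 for both). WOX9 was at 0.48 ± 0.40 averaged over the genotypes (adjusted p = 0.635).

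None of the 3 genes passed between 4 h and 0 h. In crl1 the difference of 4 h from 0 h was -0.05 ± 0.26 for WOX11 (limma adjusted p = 0.986, 95% interval -0.62 to 0.52) and 0.33 ± 0.23 for WOX6 (0.874, -0.18 to 0.84). The WOX11 arrays of the 2 times overlapped and those of WOX6 did not, in a comparison in which 0.0154% of probe sets passed. In wild type both genes were lower at 4 h than at 0 h without overlap, at -0.91 ± 0.26 for WOX11 (adjusted p = 0.436) and -0.94 ± 0.23 for WOX6 (0.308), in a comparison in which 0.0184% of probe sets passed. The share of all probe sets whose times separate without overlap was not counted, here or for the 2 h arrays above. Averaged over the genotypes the values were -0.48 ± 0.18 for WOX11, -0.30 ± 0.16 for WOX6 and 0.71 ± 0.40 for WOX9 (adjusted p = 0.458, 0.650 and 0.664), where 0.455% of probe sets passed.

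**Figure D2:**
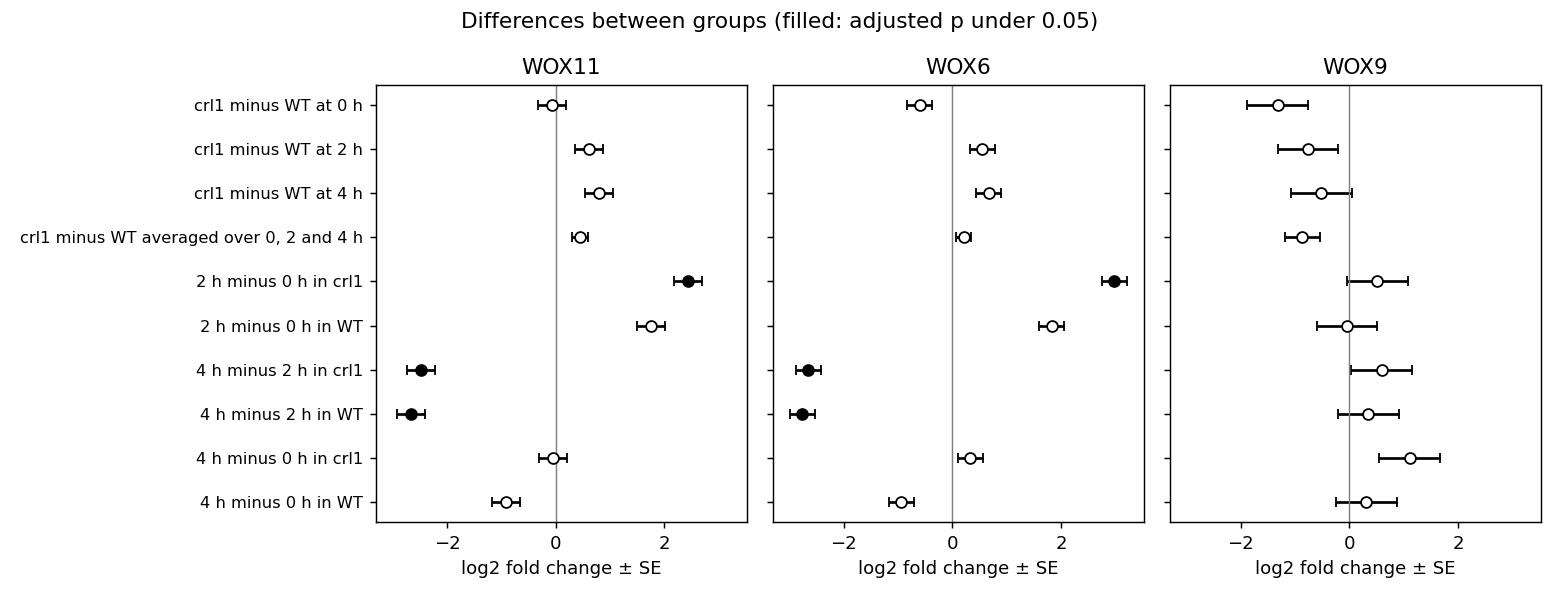
Log2 fold changes with standard errors for WOX11, WOX6 and WOX9 in 10 comparisons, the first-named group over the second, with filled points where the adjusted p is under 0.05. WOX11 and WOX6 have filled points for 2 h against 0 h in crl1 and for 4 h against 2 h in both genotypes, and no comparison of crl1 with wild type has one.

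The second comparison asked whether the genes differed in crl1. With all 12 arrays none of the 3 passed at any time or averaged over the times. WOX11 signals of the genotypes overlapped at 0 h (-0.07 ± 0.26, limma adjusted p = 0.959, 95% interval -0.64 to 0.50). At 2 h both crl1 arrays lay above both wild-type arrays (0.62 ± 0.26, 1.54-fold, adjusted p = 0.432), and they did so again at 4 h (0.80 ± 0.26, 1.74-fold, adjusted p = 0.513). With 1 array left out the 4 h value ran from 0.51 (without wild type 4 h repetition 2) to 1.09 (without wild type 4 h repetition 1), and none passed. At 2 h without wild type 2 h repetition 2 the WOX11 difference was 0.33 (adjusted p = 0.882), and with repetition 1 of that group left out in its place the value of 0.91 passed (adjusted p = 0.0479), as did the WOX11 average over the times (0.55, adjusted p = 0.0328). Over all arrays 0.101% of probe sets passed at 0 h, 0.0738% at 2 h and 0.0799% at 4 h.

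WOX6 was on the low side in crl1 before auxin and on the high side after it. At 0 h both crl1 arrays lay below both wild-type arrays (-0.60 ± 0.23, limma adjusted p = 0.477). At 2 h (0.55 ± 0.23, adjusted p = 0.432) and at 4 h (0.67 ± 0.23, adjusted p = 0.544) both lay above. At 2 h without wild type 2 h repetition 2 the WOX6 difference was 0.69 (adjusted p = 0.709). The 4 h value ran from 0.39 without crl1 4 h repetition 1 to 0.94 without crl1 4 h repetition 2, and none passed.

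The difference between the genotypes in the response itself was tested as well. The 2 h response in crl1 minus that in wild type was 1.15 ± 0.33 log2 units for WOX6 (limma adjusted p = 0.868, 95% interval 0.43 to 1.87) and 0.69 ± 0.37 for WOX11 (0.868, -0.12 to 1.49), and neither passed. Without wild type 2 h repetition 2 the values were 1.29 and 0.40. By repetition number, WOX6 responses at 2 h were 3.06 and 2.90 in crl1 and 1.68 and 1.97 in wild type, with no overlap. For WOX11 they were 2.20 and 2.67 in crl1 and 2.20 and 1.30 in wild type, and in repetition 1 the genotypes were level. With limma 0 of 32524 probe sets (0%) passed in this comparison, and 1831 had an unadjusted p under 0.05. At 4 h the same difference was 1.27 ± 0.33 for WOX6 and 0.86 ± 0.37 for WOX11 (adjusted p = 0.990 for both), where likewise 0 passed and 1090 had an unadjusted p under 0.05. For both times the count was 0 in each other setting tried except without wild type 2 h repetition 1, where 1022 passed at 2 h.

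WOX9, the quiescent centre gene, was read close to background on every array, and none of its comparisons passed. In crl1 it had 5.47 and 6.32 at 0 h, 6.15 and 11.5 at 2 h, and 9.09 and 17.9 at 4 h. In wild type it had 13.1 and 16.4 at 0 h, 10.0 and 20.2 at 2 h, and 14.3 and 23.2 at 4 h. In each of the 6 pairs of arrays of the same time and repetition number, crl1 lay below wild type, and the genotypes did not overlap at 0 h. The share of all probe sets whose genotypes separate in such ways was not counted, here or for WOX11 and WOX6. Both crl1 arrays were at or below background at 0 h and at 2 h, and both were above it at 4 h, while all 6 wild-type arrays were above it.

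With the crl1 arrays at 0 h raised to background, the wild-type mean of WOX9 was 1.27 times that of crl1. The fitted difference at 0 h was -1.32 ± 0.56 and did not pass (limma adjusted p = 0.529). At 2 h the same ratio was 1.02 (fitted difference -0.76 ± 0.56, limma adjusted p = 0.603). Wild type repetition 1 (10.0) lay below crl1 repetition 2 (11.5), so no minimum fall is shown there. The fitted 2 h value was -0.25 without wild type 2 h repetition 2 and -1.26 without repetition 1 of that group. At 4 h, with both groups above background, the difference was -0.51 ± 0.56 (adjusted p = 0.915), and it ran from -0.9996 without crl1 4 h repetition 2 to -0.0259 without crl1 4 h repetition 1. Averaged over the 3 times it was -0.86 ± 0.32 (6 arrays per genotype, limma adjusted p = 0.221, 95% interval -1.58 to -0.15). This is a value for the deposited signals, with none raised to background. Leaving out wild type 2 h repetition 2 gave -0.69 (adjusted p = 0.315). In that comparison 1.38% of probe sets passed. The size of these fitted values depends on how dim signals are treated. With 16 added to each signal before log2, the WOX9 difference was -0.49 at 0 h, -0.31 at 2 h and -0.24 at 4 h, while its mean over all times was -0.35 (adjusted p = 0.224). The averages for WOX11 and WOX6 were 0.45 ± 0.15 (adjusted p = 0.175) and 0.21 ± 0.13 (0.462).

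WOX9 was higher in repetition 2 than in repetition 1 in 6 of 6 groups, and so was the median rice signal of the array. WOX11 was higher in repetition 2 in 2 groups and WOX6 in 1. The part of array brightness in the WOX9 values was not tested. The root marker PIN2 (LOC4341736), an auxin efflux carrier, was called lower in crl1 at 0 h, at 4.53 and 6.02 against 33.3 and 39.8 in wild type (limma adjusted p = 0.0266). That call passed in 4 of 12 fits with 1 array left out, and missed without wild type 0 h repetition 2. On 4 of the 6 crl1 arrays PIN2 was at or below background. Averaged over the 3 times the fitted PIN2 difference was -1.79 ± 0.22 (adjusted p = 0.00349), and it passed in 12 of 12 fits with 1 array left out (highest adjusted p 0.0206) and in 7 of 8 other settings. The other 2 root markers, the silicon transporters LSI1 and LSI2, did not pass. The summed root marker signal of the 2 arrays was 1239 to 1314 in crl1 and 891 to 1159 in wild type at 0 h, 1558 to 1891 in crl1 and 1386 to 1421 in wild type at 2 h, and 1083 to 1282 in crl1 and 1664 to 1679 in wild type at 4 h. It was thus higher in crl1 at 0 h and 2 h and lower at 4 h, and higher at 2 h than at 0 h in both genotypes, without overlap in any of these. The sums were not tested, and the share of all probe sets that separate in such ways was not counted. Most of this sum was LSI1, with 1067 and 1214 in crl1 at 0 h. PIN2, which adds little to the sum, had lower signals in crl1 at 0 h, 2 h and 4 h. At 4 h it had 12.6 and 11.6 in crl1 against 24.1 and 33.9 in wild type (limma adjusted p = 0.487). The part of root tissue in the WOX11, WOX6 and WOX9 values was not tested.

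Ordered by level, WOX11 was highest in crl1 at 2 h (geometric mean 2092) and then in wild type at 2 h (1360). Wild type at 0 h (405), crl1 at 0 h (387) and crl1 at 4 h (374) followed with overlapping arrays, and wild type at 4 h (215) came last, apart from the rest. WOX6 had the same first and second places (544 and 371) and the same last (54.6). Between these stood wild type at 0 h (105), crl1 at 4 h (86.8) and crl1 at 0 h (69.0), the first pair with overlap. For WOX9 the order was wild type at 4 h (18.2), 0 h (14.6) and 2 h (14.2), then crl1 at 4 h (12.7), and each of these neighbours overlapped the next. The crl1 groups at 2 h and 0 h were not above background, so they have no order between them.

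Likeness of pattern was measured as Pearson's r of log2 signals over the 12 arrays against 16437 other genes, with 1 probe set each. It is a description, since the arrays of a group share their time and genotype and the 2 h arrays form a cluster. WOX6 was the gene most like WOX11, at place 1 of 16437 with r = 0.968. Within the 8 arrays of 0 h and 4 h, where the peak plays no part, r was 0.762. Leaving out wild type 2 h repetition 2 gave 0.974. WOX9 had r = -0.277 with WOX11 and -0.151 with WOX6.

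**Figure D3:**
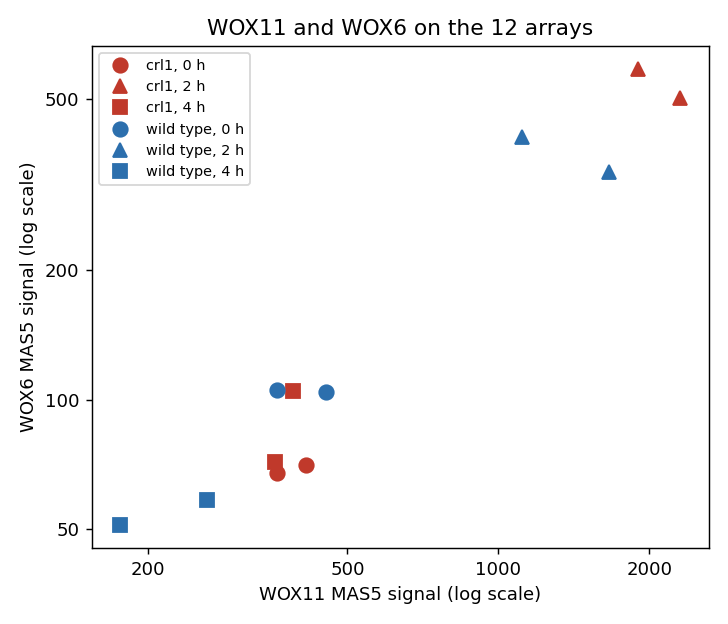
WOX6 signal against WOX11 signal (both log scales), 1 point per array, coloured by genotype and shaped by time. The 4 arrays at 2 h form a group at the upper right, apart from the 8 arrays at 0 h and 4 h, and the 2 wild-type arrays at 4 h are lowest in both genes.

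The next genes by likeness to WOX11 were LOC4344217 (r = 0.962), LOC4326375 (0.953), LOC4323870 (0.951) and LOC4337271 (0.939), none of which has a name in the gene table. Of these, LOC4344217 and LOC4326375 were also among the 5 most like WOX6, with r = 0.951 and 0.971. The gene most like WOX6 was GH3.4 (LOC4339234, r = 0.975, and 0.803 over the 8 arrays), of the family of enzymes that join auxin to amino acids, and WOX11 itself was at place 3. In crl1 GH3.4 signals were 155 and 123 at 0 h, 472 and 424 at 2 h, and 153 and 146 at 4 h. In wild type they were 182 and 181 at 0 h, 259 and 381 at 2 h, and 119 and 136 at 4 h. The 4 arrays at 2 h lay above the other 8. GH3.4 was picked by its r with WOX6 over these same arrays, so its peak is no separate evidence. LOC4345978 (0.948) was at place 5. For WOX9 the most like were LOC4331278 (0.947), SHL2 (LOC4323938, 0.934), an RNA-dependent RNA polymerase needed for the rice shoot meristem, LOC4338191 (0.929), LOC4325683 (0.920) and LOC4347460 (0.914). Over the 11 arrays without wild type 2 h repetition 2, r for these genes ran from 0.937 to 0.974 with WOX11, from 0.943 to 0.974 with WOX6 and from 0.901 to 0.939 with WOX9. The genes listed for WOX9 were, like WOX9 itself and the array median, higher in repetition 2 than in repetition 1 in each group. The part of array brightness in their r with WOX9 was not tested.

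Of the other WOX genes, WOX8 (LOC4327441) was above background on all 12 arrays, with 106 to 183 in crl1 and 120 to 163 in wild type. It did not pass in any comparison, and its 2 h difference averaged over the genotypes was 0.27 ± 0.15 (limma adjusted p = 0.810). WOX7 was above background on 3 arrays, and WOX4 and WOX10 on 0. The gene table also lists LOC4327390 as WOX5, which has no probe set of its own.

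Partners of WOX11 and QHB were taken from a list of 12 measured genes. With limma 0 of them passed in any of the 15 comparisons, and the median 2 h difference averaged over the genotypes was -0.08, against -0.01 for all probe sets. In these comparisons 0% to 1.38% of all probe sets passed, so a count of 0 among 12 genes sets the list apart from nothing. RR2 (LOC4329677) had 85.1 and 84.6 at 0 h, 83.6 and 64.4 at 2 h, and 39.9 and 49.6 at 4 h in crl1. In wild type it had 123 and 87.5 at 0 h, 103 and 70.0 at 2 h, and 48.8 and 78.2 at 4 h. Averaged over the genotypes RR2 was at -0.84 ± 0.22 for 4 h against 0 h (limma adjusted p = 0.202), and RR1 (LOC4335937), another type-A regulator, at -0.91 ± 0.29 (0.348). The 2 h difference averaged over the genotypes was 0.25 for LAZY1 (listed as LA1, LOC4350543), a regulator of shoot gravitropism. It was -0.22 for SCR1 and -0.09 for SHR1, GRAS factors that pattern root tissues, and none of the 3 passed. ADA2 and GCN5, parts of a histone acetyltransferase complex that works with WOX11 in rice, had 859 to 1089 and 219 to 320 over all arrays.

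Among 7 measured genes of crown roots and root meristems, CKX4 (LOC4326515), an enzyme that breaks down cytokinin and promotes crown root formation in rice, was the one that passed. Its crl1 signals were 196 and 102 at 0 h, 688 and 422 at 2 h, and 177 and 162 at 4 h. In wild type they were 105 and 62.5 at 0 h, 273 and 236 at 2 h, and 48.0 and 54.6 at 4 h. So CKX4 too was highest at 2 h in both genotypes, and it stood at place 47 of 16437 in likeness to WOX11 (r = 0.868, and 0.589 over the 8 arrays of 0 h and 4 h).

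Averaged over the genotypes CKX4 rose at 2 h by 1.79 ± 0.25 (limma adjusted p = 0.0281) and fell by 1.99 ± 0.25 between 2 h and 4 h (0.00777). In contrast to WOX11 and WOX6, it also passed between the genotypes, at 1.21 ± 0.20 higher in crl1 over the 3 times (limma adjusted p = 0.0198), though the differences between these genes were not tested. Of all probe sets, 0.126% passed for the averaged 2 h change, 0.925% for 4 h against 2 h and 1.38% between the genotypes over the times. The 2 h rise passed in 3 of 12 fits with 1 array left out (adjusted p up to 0.156, without crl1 2 h repetition 1), the fall in 11 (0.0504 without that array) and the genotype difference in 7 (up to 0.0778, without wild type 4 h repetition 1).

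**Figure D4:**
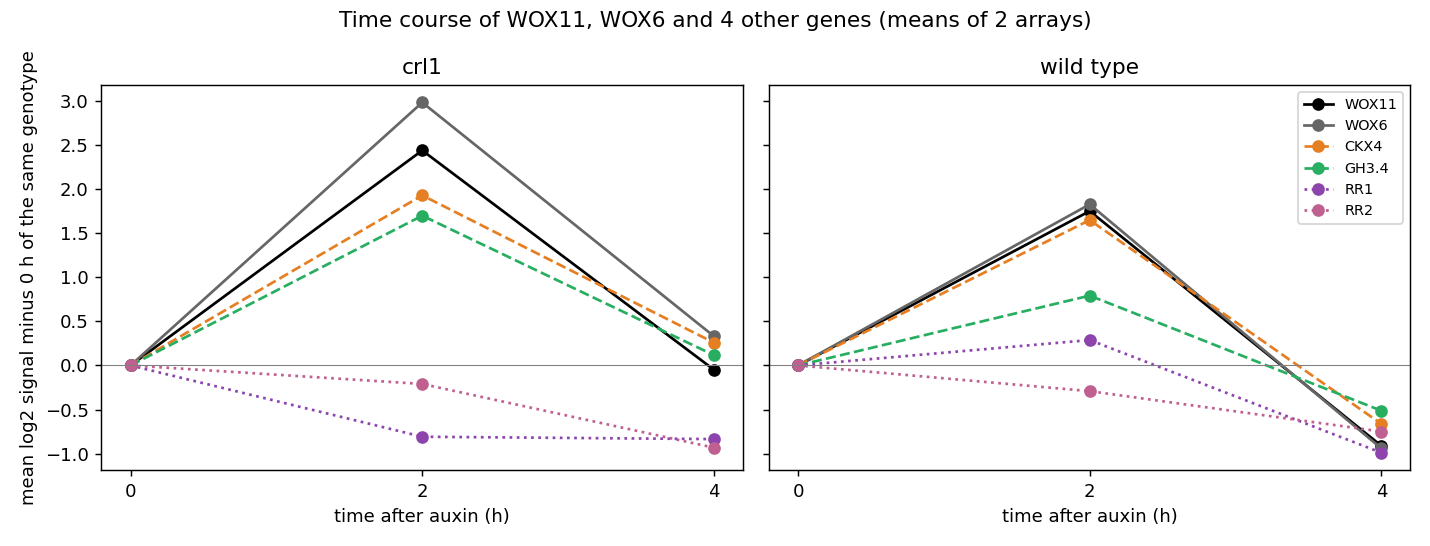
Mean log2 signal of 2 arrays minus that at 0 h of the same genotype, against hours after auxin, in crl1 (left) and wild type (right). WOX11, WOX6, CKX4 and GH3.4 peak at 2 h in both genotypes, with WOX6 at 2.98 in crl1 and 1.83 in wild type at 2 h, while RR2 lies below its 0 h level at 4 h in both. GH3.4 was picked for its likeness to WOX6 on these same arrays.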

How the data were processed

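RNA was measured on 12 arrays. For each probe set and array the authors deposited a single linear intensity, the MAS5 signal. MAS5 and Affymetrix Expression Console are named, per the submitters' processing notes, without a version. The mean signal after trimming 2% at each end was 100.0 on every array. Having 2 arrays per group limits precision. Probe sets were named from the platform annotation and the RefSeq gene table of assembly ASM3414082v1, used for names only.

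Signals were turned to log2 without further scaling. Rice probe sets above their array's median on at least 2 arrays were kept (32524 of 57194). The model (limma 3.58.1, R 4.3.3, lmFit and eBayes with an intensity trend) had 1 mean per group, 6 residual degrees of freedom, two-sided tests, Benjamini-Hochberg adjustment over all kept probe sets within a comparison, threshold 0.05. The code was tested on simulated data. The 3 comparisons of 4 h with 2 h and the correlations over the 8 arrays of 0 h and 4 h were added after values had been seen. There were 22 alternative settings. Members and lists were chosen with earlier results of these data known. Named genes were the members, RR1, RR2, SCR1, SHR1 and LAZY1 whatever their p, up to 4 passing genes of each list, and the 5 genes most like each member. ERF3 was not found by name, and LOC4352167, also named CHARK, was taken out of the root list by its names. The entry named HSFA2D also carries names of another enzyme and is not described.

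The labels number the arrays by repetition and do not say that a number marks a run shared across groups; the number was a block in an alternative fit. P-values set a difference against the spread between these arrays within groups, moderated by eBayes with that of other probe sets.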

Additional observations from a re-analysis of the deposited data

Results flagged for a closer look

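Between 0 h and 4 h, WOX6 was higher at 4 h in both crl1 repetition numbers and lower in both wild-type ones on the deposited scale. Its log2 change was 0.58 and 0.08 in crl1, and -0.85 and -1.03 in wild type. The response in crl1 minus that in wild type was 1.27 ± 0.33 log2 units, and its test did not pass (limma adjusted p = 0.990). The direction in crl1 depends on the scaling. After median centring, tried after the data had been seen, the changes in crl1 were 0.48 and -0.08, against -0.91 and -1.18 in wild type, and after quantile normalization they were 0.46 and 0.02, against -0.77 and -1.07 in wild type. The 4 h difference from 0 h within crl1 was 0.20 with median centring and -0.21 with the mean of both WOX6 probe sets, against 0.33 as deposited.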

How the results depend on the processing

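Each of the 45 results (3 genes in 15 comparisons) was recomputed with each of 12 arrays left out and under up to 10 other settings. A lone array of a group was then assumed to vary like the other groups. No label ties a repetition number to a run shared across groups, and deviations from group means correlated between groups of arrays from 0.00776 to 0.249, above 0.1 in 11 of 15 pairs, a hint from the data only. With repetition as a replicate block no call of the 3 genes changed, while counts of called probe sets were 81 against 41 without it for the averaged 2 h change, 43 against 13 in crl1, 599 against 301 for the averaged 4 h against 2 h and 1037 against 449 between genotypes over the times. With the block the WOX9 difference of crl1 from wild type over the 3 times kept its value of -0.86 (adjusted p = 0.0906). With a filter at the 75th percentile WOX9 was not kept and has no value, and the average over the 3 times uses all groups, so a fit of the compared groups alone was not run for it. The averaged rises at 2 h and falls to 4 h of WOX11 and WOX6 passed throughout, except that the WOX6 rise missed with the mean of both its probe sets (1.39). That mean also ended the WOX6 calls in crl1 at 2 h (1.80), and from 2 h to 4 h in crl1 (-2.01) and wild type (-2.47), and turned 4 h against 0 h in crl1 to -0.21. The second probe set lay at or below background on 10 of 12 arrays. Median centring moved the 2 h values in crl1 by -0.21, the most of any comparison, and ended the WOX11 calls in crl1 (2.23 at 2 h, -2.41 from 2 h to 4 h). Without an intensity trend the WOX11 calls in crl1 (2.44, -2.48) and wild type (-2.66) and the WOX6 fall in crl1 (-2.65) missed. Array weights, and a fit of the compared groups alone, ended the falls in wild type (-2.66 for WOX11, -2.77 for WOX6). The cause was not tested. With 16 added before log2, WOX9 in wild type at 2 h against 0 h turned to 0.00049.

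With 1 array left out, called values ran from 2.29 to 2.58 (WOX11) and 2.87 to 3.09 (WOX6) for the rise in crl1. For the fall they ran from -2.63 to -2.34 (WOX11) and -2.92 to -2.37 (WOX6) in crl1, and from -2.95 to -2.37 and -2.90 to -2.63 in wild type. In crl1 the WOX11 fall missed without any 1 of the 4 arrays compared and the WOX6 fall without 3 of them, and in wild type both missed without wild type 4 h repetition 2. Without wild type 2 h repetition 1, which leaves the array that stood apart alone in its group, 4 results passed that otherwise did not. These were WOX11 between genotypes at 2 h (range 0.33 to 0.91) and over the times (0.35 to 0.55), and the rise in wild type of WOX11 (1.46 to 2.04) and WOX6 (1.69 to 1.96). Values near 0 changed sign without passing: WOX11 between genotypes at 0 h (-0.23 to 0.0951) and at 4 h against 0 h in crl1 (-0.15 to 0.0488). So did WOX9 at 2 h against 0 h in wild type (-0.54 to 0.46) and averaged (-0.0130 to 0.49), at 4 h against 0 h in wild type (-0.0387 to 0.66), and at 4 h against 2 h in wild type (-0.15 to 0.86).

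Counts of probe sets called moved more. They were 41 for the averaged 2 h rise or fall (13 to 81 in other settings, 11 to 1379 with 1 array left out), 13 within crl1 (1 to 43, 0 to 29) and 1 within wild type (0 to 2, 0 to 3376). From 2 h to 4 h they were 301 averaged (52 to 599, 35 to 3526), 9 in crl1 (0 to 321, 0 to 40) and 11 in wild type (0 to 95, 0 to 5006). Between genotypes they were 33 at 0 h (16 to 71, 0 to 50), 24 at 2 h (2 to 36, 11 to 4761), 26 at 4 h (9 to 99, 7 to 44) and 449 over the times (242 to 1037, 151 to 3675). At 4 h against 0 h they were 148 averaged (23 to 283, 14 to 277), 5 in crl1 (0 to 16, 0 to 10) and 6 in wild type (3 to 108, 0 to 55). The counts above 1000 with 1 array left out came without wild type 2 h repetition 1. Signals near background limit WOX9 most.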

Other observations

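In wild type at 2 h the 2 repetitions ordered WOX11 and WOX6 in opposite ways. Repetition 2, the array that stood apart, had the lower WOX11 signal of the pair (1114, against 1659 in repetition 1) and the higher WOX6 signal (408, against 338 in repetition 1).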
